A study of Mus musculus with 3 samples.

Results

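The genes described here are 10 genes of insulin signalling and of the liver's answer to insulin, given as a list of names: the insulin receptor Insr, its docking proteins Irs1 and Irs2, the kinases Akt1 and Akt2, the PI3K regulatory subunit Pik3r1, the transcription factors Foxo1 and Foxo3, and the binding proteins Igfbp1 and Igfbp2. They are 10 of 18193 genes named on the array, and all 10 were among the 11341 genes bright enough to be compared. Hepatic RNA came from male C57BL/6J mice that started a diet at 6 weeks of age and stayed on it for 15 weeks. The Control diet held 10% of its energy as fat, the HF diet held 60%, and the HF+SFC diet was the HF diet with sodium ferrous citrate, an iron salt, at 0.023% by weight. No group received the iron salt on the Control diet. The paper states that sucrose gave a larger share of energy in the Control diet than in the HF diet. It also states that HF-fed mice took in more energy than Control-fed mice. HF against Control is therefore not a contrast of fat alone. The labels give an age of 21 months, which is at odds with the feeding times. Mice ate freely and were fasted for a short time before collection, as the study's methods state. Material of all mice of a group was mixed and read on 1 array, so that each group was 1 pool. There were no replicates and no test was possible, so that all differences given are between pools.

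Insulin that reaches the liver binds the insulin receptor, which phosphorylates the docking proteins IRS1 and IRS2. These recruit phosphoinositide 3-kinase through its p85 regulatory subunit, and the lipid it makes brings AKT to the membrane, where AKT is activated. AKT then phosphorylates the FOXO transcription factors, which leave the nucleus, and genes that FOXO had switched on in the fasted liver, among them Igfbp1, Irs2 and the gluconeogenic enzymes Pck1 and G6pc, are switched off. Insulin acts in the same cells through SREBP-1c to raise the genes of fatty acid synthesis. Most of these steps are changes in phosphorylation and location, which an RNA measurement does not read.

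Promoters of the 4 genes at least 1.5-fold lower in HF+SFC over Control are shown first, because Igfbp1 and Irs2 are textbook examples of genes that FOXO binds. The motifs CAAAACA and CAAAATA, cores of the insulin response sequence, and the forkhead core GTAAACA were searched on both strands in windows of 250 bases before to 50 bases after the start site, taken from RefSeq on GRCm38.p6. Such windows were found for 9 of the 10 genes (15 windows). Each line below gives the 150 bases before the start site, 5′ to 3′ on the gene's own strand, with motif letters in capitals. The Igfbp1 stretch is chr11:7197637-7197786 (plus strand), Irs2 is chr8:11008930-11009079 (minus strand), Irs1 is chr1:82291440-82291589 (minus strand), and Igfbp2 is chr1:72824330-72824479 (plus strand).
Igfbp1: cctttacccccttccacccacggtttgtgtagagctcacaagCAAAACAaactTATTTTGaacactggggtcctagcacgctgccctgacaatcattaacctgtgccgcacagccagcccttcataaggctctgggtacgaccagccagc
Irs2: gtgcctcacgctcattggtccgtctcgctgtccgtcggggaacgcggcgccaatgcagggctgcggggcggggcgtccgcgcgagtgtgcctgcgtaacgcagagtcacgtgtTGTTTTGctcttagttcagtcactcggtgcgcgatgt
Irs1: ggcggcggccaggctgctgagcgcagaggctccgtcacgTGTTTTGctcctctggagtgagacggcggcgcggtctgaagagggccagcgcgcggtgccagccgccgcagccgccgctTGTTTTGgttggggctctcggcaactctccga
Igfbp2: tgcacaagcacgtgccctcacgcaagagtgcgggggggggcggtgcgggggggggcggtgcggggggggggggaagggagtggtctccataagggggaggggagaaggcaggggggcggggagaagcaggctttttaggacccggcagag
In Igfbp1, CAAAACA lay at -108 to -102 from the start site and CAAAATA, on the other strand, at -97 to -91. Irs2 held CAAAACA on the other strand at -37 to -31, and Irs1 held it there at -111 to -105 and at -32 to -26. Neither window of Igfbp2 held any of the 3 motifs. Elsewhere, GTAAACA was found in Akt1 and CAAAATA in Pik3r1, so that 5 of the 9 genes held a motif in some window. Among all genes with a window, 15.0% of 27025 held at least 1 of the motifs. A gene with more windows has more places for a match. By window, 5 of the 15 held a motif, against 13.3% of 32851 over all genes. The shares of those 32851 were 6.28% for CAAAACA, 4.36% for CAAAATA and 3.65% for GTAAACA. The 10 genes include known FOXO targets, so the excess is partly set by the choice of genes. A match describes letters and is not a measured binding site.

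Signals are MAS5 intensities on a linear scale, and a gene was read through its brightest probe set. With no replicates, the only spread at hand was how far log2 ratios of probe sets for the same gene lay apart within a range of signal. It leaves out variation between mice and pools, and disagreement between bright and dim probe sets in different ranges. This spread also holds differences between transcripts. In HF over Control its SD was 0.52 at signals of 76.9 to 250, 0.27 at 250 to 1000, 0.16 at 1000 to 4000 and 0.12 above. The same SDs in HF+SFC over HF were 0.50, 0.25, 0.14 and 0.087. The 12 hepatocyte markers on the array had signals of 10144 to 68088 on every array, which fits the liver label. Ratios of 3′ to 5′ signal were 1.65 to 1.84 for Actb and 0.680 to 0.708 for Gapdh. As a threshold of size, 1.5-fold was used throughout.

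In HF compared with Control, 3 of the 10 genes were at least 1.5-fold lower, and 1 was higher. The lower genes were Igfbp1 (4.38-fold), Irs2 (3.31-fold) and Igfbp2 (3.02-fold), and the higher gene was Foxo3 (1.86-fold). Over all kept genes, 5.84% were lower and 11.3% higher by as much. The kinases, the receptor, Pik3r1 and Foxo1 differed by less than 1.5-fold. The median log2 ratio of the 10 genes was -0.082, against 0.028 over all kept genes.

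In HF+SFC compared with HF, 1 of the 10 genes, Irs2, was at least 1.5-fold higher (1.995-fold) and 0 were lower, where 2.88% of all kept genes stood that much higher and 5.33% that much lower. Igfbp2 was 1.41-fold higher and Igfbp1 stood at a log2 ratio of -0.13. The median of the 10 genes was -0.050, against -0.0071 over all kept genes. In HF+SFC compared with Control, Irs1, Irs2, Igfbp1 and Igfbp2 were lower and Foxo3 higher, with 6.88% of all kept genes lower and 9.20% higher. The median there was -0.11 for the 10 genes and 0.018 for all. Each pair of these comparisons shares an array, so they are not independent of each other.

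**Figure D1:**
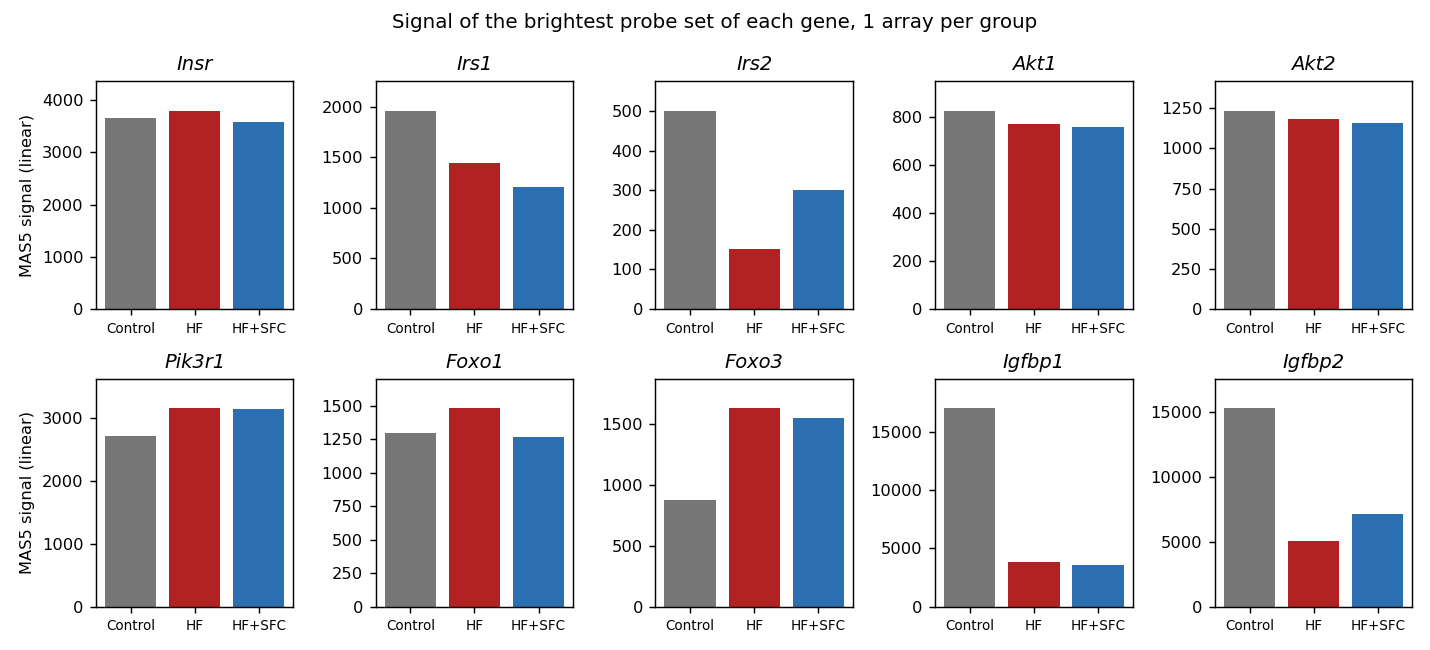
MAS5 signal (linear axis from 0, scaled for each gene) of the brightest probe set of each of the 10 genes on the Control, HF and HF+SFC arrays, 1 bar per array and no error bars because there was 1 array per group. Irs2, Igfbp1 and Igfbp2 have their highest bar in Control (500, 16981 and 15262), whereas Foxo3 has its lowest there (874).

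At the top of the pathway, Insr, which encodes the receptor, gave signals of 3651 (Control), 3793 (HF) and 3586 (HF+SFC). The arrays were nearly level by this probe set, with log2 ratios of 0.055 (HF over Control) and -0.081 (HF+SFC over HF). The other 2 probe sets of Insr were much dimmer and gave a different picture. One had signals of 187, 125 and 219, and the other 241, 120 and 176, in Control, HF and HF+SFC. Both were lowest in HF, with log2 ratios of HF over Control of -0.58 and -1.001, in a range of signal where the SD between probe sets was 0.52. The level of Insr RNA in HF therefore depends on the probe set.

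Irs1, a docking protein that the activated receptor phosphorylates, gave signals of 1958 (Control), 1447 (HF) and 1209 (HF+SFC). Its order was Control, then HF, then HF+SFC. The log2 ratio was -0.44 (HF over Control) and -0.26 (HF+SFC over HF), both under 1.5-fold, and the sum of these steps, -0.70 for HF+SFC over Control, passed it (1.62-fold lower). The SD between probe sets at this signal was 0.18 for HF+SFC over Control.

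Irs2, the other docking protein of the liver and one that fasting induces, gave signals of 500 (Control), 151 (HF) and 301 (HF+SFC). HF was lowest, and HF+SFC lay between HF and Control. The log2 ratio was -1.73 for HF over Control, with 39 of the kept genes lower still. Its ratio of HF+SFC over HF was 0.997, with 87 genes higher, and for HF+SFC over Control it was -0.73 (1.66-fold lower). Irs2 was read by 1 probe set, and its HF signal lay in the range where the SD between probe sets was 0.52.

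Pik3r1, which encodes the p85α family of regulatory subunits that dock PI3K to IRS proteins, gave signals of 2712 (Control), 3157 (HF) and 3149 (HF+SFC). The difference of HF from Control was small (log2 ratio 0.22) but had the same sign in 4 of 4 probe sets, which ranged from 0.22 to 0.54. The dimmest of them had signals of 269, 392 and 447, and another 705, 1011 and 958. HF+SFC and HF were level by the brightest probe set (-0.0037), and the 4 probe sets ranged from -0.17 to 0.19.

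Akt1, the widely expressed AKT kinase, gave signals of 827 (Control), 770 (HF) and 759 (HF+SFC), and Akt2, the isoform most tied to glucose metabolism in liver, had 1233, 1182 and 1157. The log2 ratios of HF over Control were -0.10 and -0.061, below the spread between probe sets. As with Insr, the dimmer probe sets lay further from 0. In Akt1 a probe set with signals of 396, 330 and 409 gave -0.27 and one with 189, 106 and 167 gave -0.83. In Akt2 one with 534, 400 and 484 gave -0.42 and one with 170, 77.3 and 91.3 gave -1.14. All kept probe sets of both genes were below 0 in HF over Control, whereas for HF+SFC over HF they lay from -0.021 to 0.65 in Akt1 and from -0.031 to 0.27 in Akt2. The brightest probe set of Akt2, like that of Foxo1, carries a suffix for sets that can match transcripts of more than 1 gene.

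**Figure D2:**
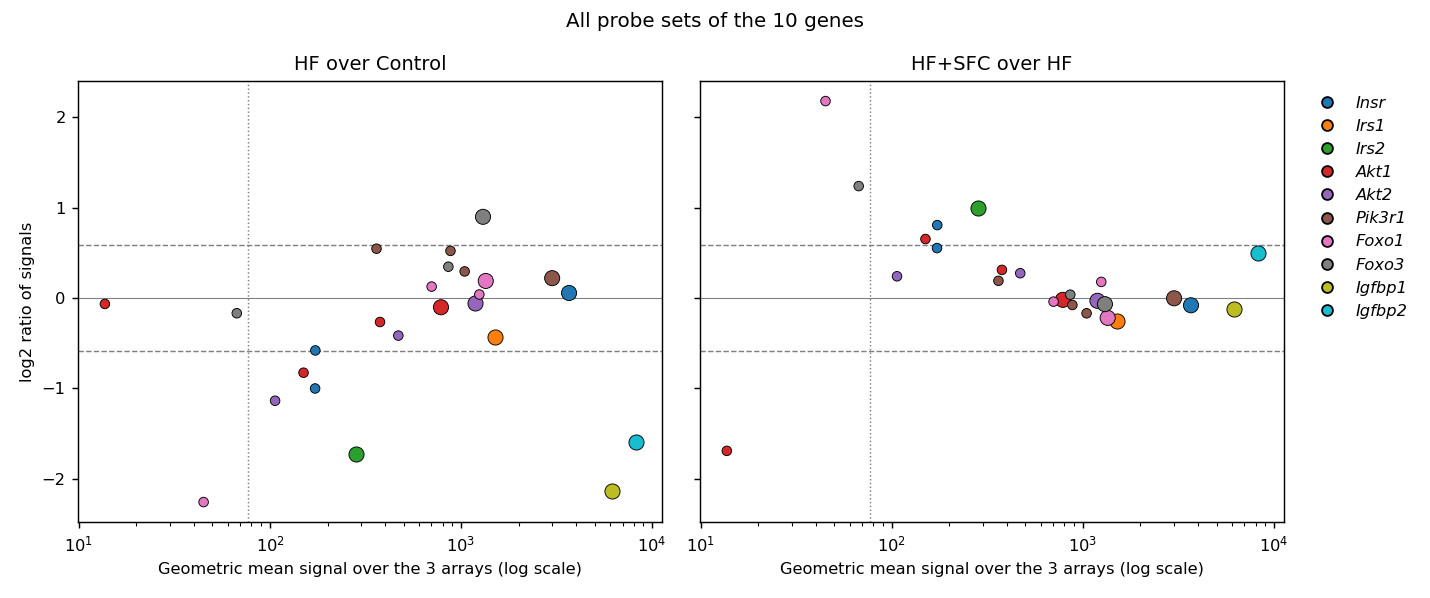
Log2 ratio of signals (vertical axis) against geometric mean signal of the 3 arrays (horizontal log axis) for all 25 probe sets of the 10 genes, with HF over Control on the left and HF+SFC over HF on the right. Large points are the brightest probe set of a gene, dashed lines mark 1.5-fold and the dotted line the lowest kept signal (76.9), and the dim probe sets spread further from 0 than most bright ones.

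Foxo1, the main FOXO factor of hepatic glucose production, gave signals of 1299 (Control), 1480 (HF) and 1271 (HF+SFC). No pair of arrays differed by 1.5-fold, and the log2 ratios were 0.19 (HF over Control) and -0.22 (HF+SFC over HF). A second probe set with signals of 1175, 1207 and 1365 was highest in HF+SFC, so that the probe sets disagreed on which array was highest. The remaining kept set had 668, 729 and 709.

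Foxo3, a related factor with overlapping targets, gave signals of 874 (Control), 1629 (HF) and 1553 (HF+SFC). Both HF arrays were thus above Control, by log2 ratios of 0.90 and 0.83, and close to each other (-0.068). A second probe set with signals of 725, 922 and 945 had the same order of Control against the other arrays at a smaller size, 0.35 in HF and 0.38 in HF+SFC relative to Control, neither of which reached 1.5-fold. The brighter set carries a suffix for sets that match several transcripts of one gene. One more probe set of Foxo3 and 1 each of Foxo1 and Akt1 lay below the lowest kept signal, which left 22 of 25 probe sets.

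Igfbp1, a secreted protein that binds IGF-I and IGF-II and whose hepatic transcription insulin represses within a short time, gave signals of 16981 (Control), 3877 (HF) and 3549 (HF+SFC). Control stood far above both HF arrays. The log2 ratio was -2.13 for HF over Control, with 15 kept genes lower, and -2.26 for HF+SFC over Control (4.78-fold lower), with 14 lower. The SDs between probe sets at this signal were 0.12 and 0.11. HF+SFC over HF was -0.13, against an SD of 0.087.

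Igfbp2, another hepatic IGF-binding protein under nutritional and hormonal control, gave signals of 15262 (Control), 5054 (HF) and 7142 (HF+SFC). Like Irs2 and unlike Igfbp1, it was higher in HF+SFC than in HF, without reaching the Control signal. The log2 ratios were -1.59 for HF over Control, with 43 kept genes lower, 0.50 for HF+SFC over HF, with 464 higher, and -1.10 for HF+SFC over Control (2.14-fold lower). Irs1, Irs2, Igfbp1 and Igfbp2 each had 1 probe set, so that no second probe set could be set beside these values.

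**Figure D3:**
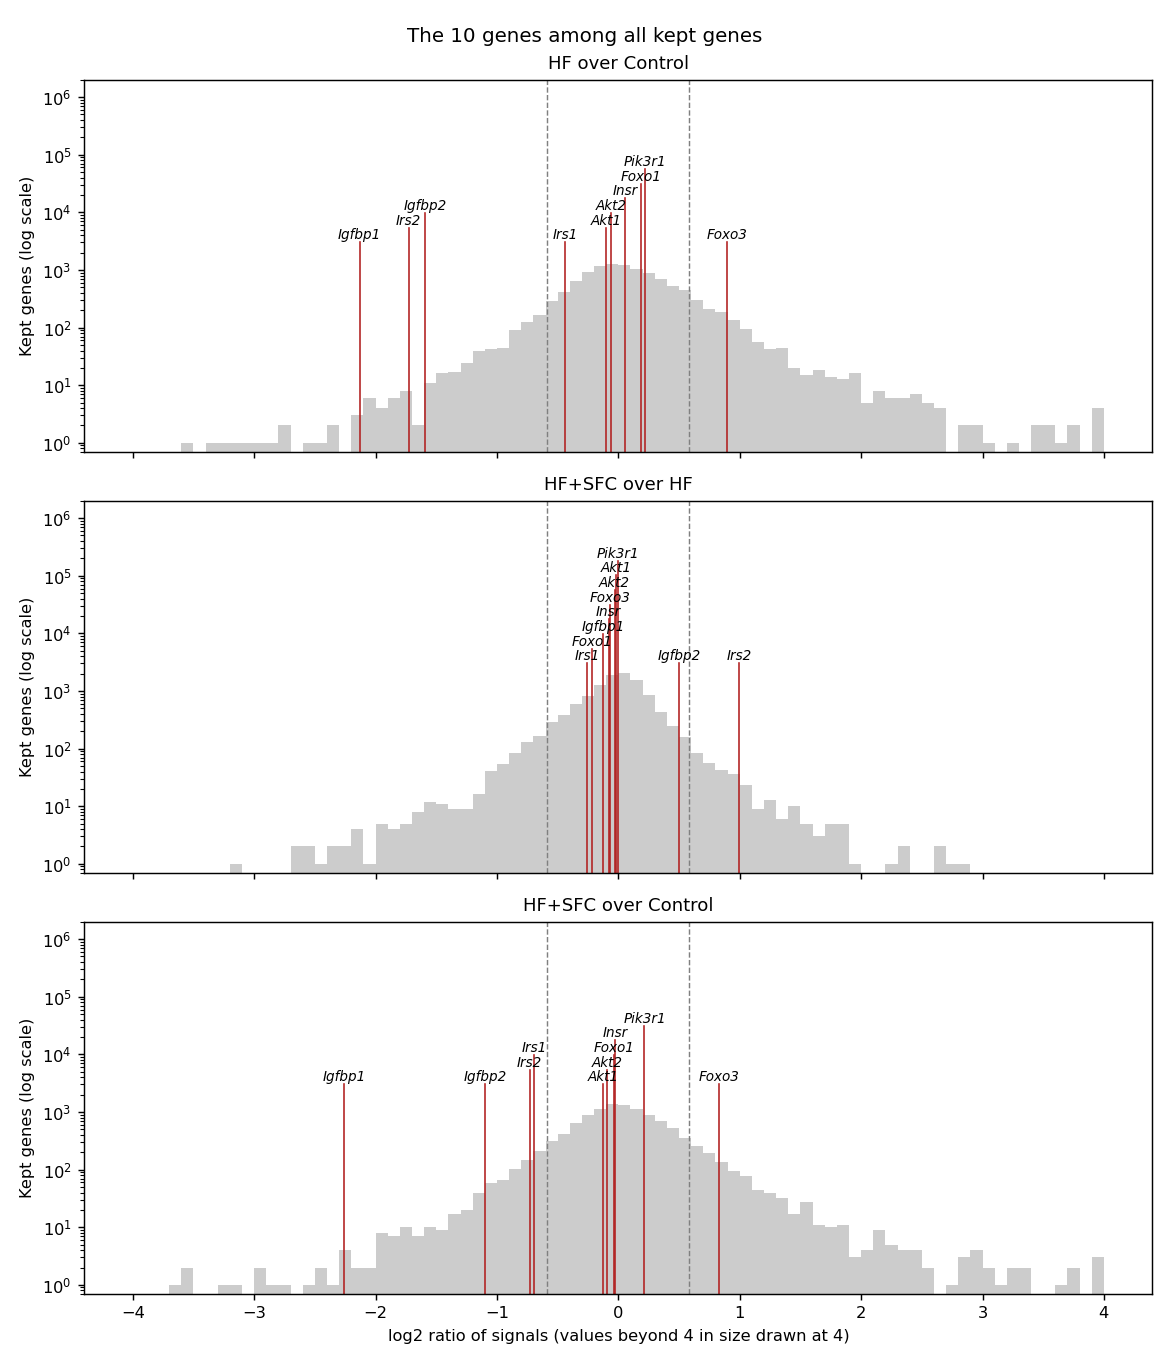
Number of kept genes (log axis) by log2 ratio of signals in bins, for HF over Control, HF+SFC over HF and HF+SFC over Control, with the 10 genes drawn as red lines whose height only separates the names. Dashed lines mark 1.5-fold; Igfbp1, Irs2 and Igfbp2 lie in the left tail of HF over Control (-2.13, -1.73 and -1.59), and Irs2 in the right tail of HF+SFC over HF (0.997).

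The wider pathway was described by 10 lists that hold 129 further genes, 123 of them named on the array and 115 kept. At 1.5-fold, 14 were higher and 8 lower in HF over Control, in HF+SFC over HF 3 and 2, and in HF+SFC over Control 9 and 11. Their medians were -0.026, -0.032 and -0.063. As shares of the kept pathway genes these are 12.2% and 6.96%, 2.61% and 1.74%, and 7.83% and 9.57%, beside 11.3% and 5.84%, 2.88% and 5.33%, and 9.20% and 6.88% of all kept genes.

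Of receptors and docking proteins, 0 of 9 kept genes were higher or lower in HF (median -0.18). In HF+SFC over HF, Gab1, a docking protein that also recruits PI3K, was higher with signals of 604, 579 and 931 in Control, HF and HF+SFC (log2 ratio 0.68), although its 3 probe sets ranged from 0.17 to 0.68. Among PI3K subunits, PDK1 and lipid phosphatases, 1 of 9 was higher in HF (median -0.096): Pik3r3, a smaller regulatory subunit, had signals of 85.9, 159 and 150 (0.89). In the list of AKT, GSK3 and AS160 genes, 1 of 10 was higher and 1 lower (median 0.17). Sgk2, a kinase related to AKT, was lower with signals of 7294, 4033 and 4749 (-0.85), and Tbc1d1, an AKT substrate in glucose transport, was higher with 117, 203 and 164 (0.80). Of mTOR complex genes, 1 of 13 was higher (median -0.13). It was Mlst8, a subunit shared by both complexes, at 154, 243 and 146, which was 0.66 (HF over Control) and -0.73 (HF+SFC over HF). Pik3r3, Tbc1d1 and Mlst8 were dim, in the range of the widest spread.

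Inhibitors of insulin signalling were higher in 0 and lower in 3 of 18 kept genes in HF (median -0.021), and the lower genes were all SOCS proteins, feedback inhibitors of cytokine, growth hormone and insulin receptors. Socs3 had signals of 980, 446 and 376 (log2 ratio -1.14), and its 3 probe sets ranged from -1.14 to -0.69. Socs6 had 505, 324 and 389 (-0.64) and Socs2 had 2257, 1463 and 1281 (-0.63), but these calls rested on the brightest probe set. The 3 probe sets of Socs6 ranged from -0.64 to -0.21 and those of Socs2 from -0.63 to -0.37, with medians of -0.42 and -0.45 that were under 1.5-fold. In HF+SFC over HF 0 of 18 passed either way (median -0.14). Of the FOXO family and its cofactors, 0 of 9 were higher and 1 lower in HF (median -0.11), namely Foxa2, a forkhead factor of the fasted liver, with signals of 2906, 1566 and 1925 (-0.89).

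Genes listed as repressed by insulin in liver differed in both directions. The list also holds Angptl8 and Enho, for which repression by insulin is not established, so its counts and medians describe a mixed list. Of 18 kept genes, 4 passed 1.5-fold upward and 3 downward in HF (median -0.15). Pdk4, which restrains glucose oxidation, was lower with signals of 3165, 340 and 253 in Control, HF and HF+SFC (-3.22). Gadd45b, a stress gene, had 271, 72.2 and 131 (-1.91), and its 3 probe sets ranged from -1.91 to -0.78. Enho, which encodes the peptide adropin, had 466, 260 and 532 (-0.84), but its 3 probe sets ranged from -0.84 to 0.22. On the higher side, Bcl6, a transcriptional repressor, had 928, 2009 and 557 (1.11). The other 3 higher genes, Pdk2, Sesn1 and Gadd45a, were named after their values were seen and had log2 ratios of 0.64, 0.67 and 0.64. Pck1 and G6pc, also looked up after the fact as the best known FOXO targets, had signals of 29728, 24707 and 24291 and of 14335, 10339 and 8687. Both were under 1.5-fold in HF over Control, at -0.27 and -0.47, and G6pc passed it in HF+SFC over Control, at -0.72 (1.65-fold lower).

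Of the same 18 listed genes, 2 were higher and 1 lower in HF+SFC over HF (median 0.016). Bcl6 was lower in both of its probe sets, at -1.85 and -1.23. Enho stood at 1.03 and Gadd45b at 0.86, but the 3 probe sets of each disagreed in sign, from -1.48 to 1.03 and from -1.53 to 0.86.

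Genes that insulin induces in liver were higher in 5 and lower in 0 of 13 kept genes in HF (median 0.32). Thrsp, a lipogenic gene, had signals of 2241, 18804 and 20124 (3.07), and its other probe set gave 3.29. Srebf1, the gene of SREBP-1, had 3038, 7338 and 9276 (1.27), and Fasn, fatty acid synthase, had 2225, 4004 and 4205 (0.85). Pklr, liver pyruvate kinase, had 2262, 3612 and 3142 (0.68), with probe sets from 0.28 to 0.70. The remaining higher gene, Acly, named after its value was seen, stood at 0.67. None of these 13 passed either way in HF+SFC over HF (median -0.065), with Srebf1 at 0.34. Below 0 in HF over Control were 4 of the 13, also named after their values were seen: Me1 at -0.49, Egr1 at -0.22, Scd1 at -0.19 (its other probe set at -0.88) and Ppp1r3c at -0.14.

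The IGF list, which holds the other IGF-binding proteins, had 0 of 8 kept genes higher or lower in HF (median 0.17). Igfbp4 had signals of 28601, 30365 and 31820 and Igf1 had 19624, 19875 and 17162, so that neither differed by 1.5-fold between any arrays. Among genes of glycogen and glucose entry, 2 of 8 were higher in HF and 0 lower (median 0.30). Slc2a2, the hepatic glucose transporter GLUT2, had signals of 11668, 22300 and 22408 (0.93), and Gbe1, the glycogen branching enzyme, had 2771, 5214 and 4721 (0.91). Both lists had 0 genes past 1.5-fold in HF+SFC over HF.

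**Figure D4:**
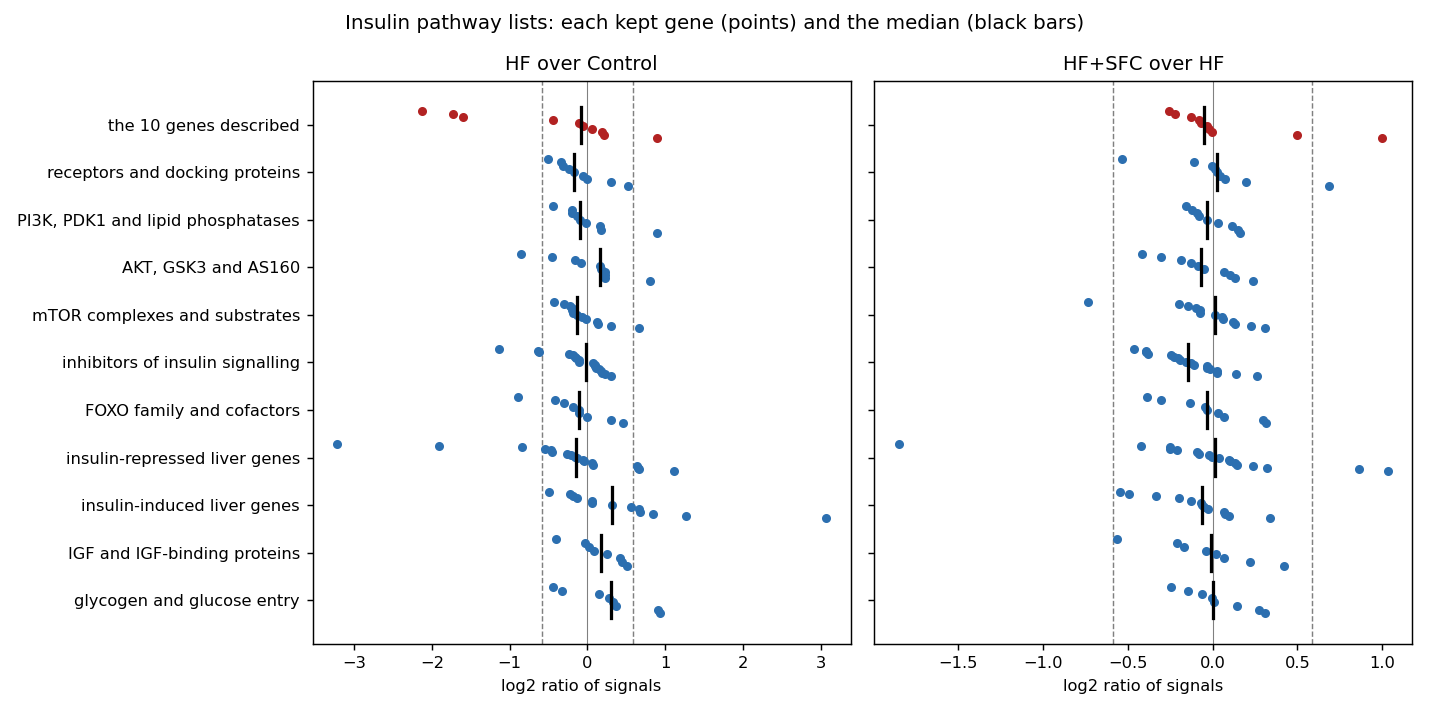
Log2 ratio of signals of every kept gene (points) in the 10 genes described (red) and the 10 pathway lists (blue), with HF over Control on the left and HF+SFC over HF on the right, on different horizontal scales. Black bars are medians and dashed lines 1.5-fold; the median of the insulin-induced genes in HF over Control is 0.32, and Thrsp is its point at 3.07.

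Values of 3 other lists are given here, and their part in the differences above was not tested. Of all kept genes, 11.3% were higher and 5.84% lower in HF over Control. In HF+SFC over HF these shares were 2.88% and 5.33%. Of 14 clock genes, 5 stood 1.5-fold or more above Control in HF and 4 below it (Dbp 1.94 and Arntl -1.60, the latter at a signal of 163 in HF and at -0.63 as the median of its 2 probe sets), and 0 passed in HF+SFC over HF. Of 10 genes listed for the fasting response driven by PPARα, 6 were lower and 1 higher in HF (median -0.64), and 1 was lower in HF+SFC over HF. The higher gene and the one lower in HF+SFC over HF were both Cidea, named after its values were seen. Its signals were 3.81, 897 and 498 (log2 ratios 7.88 and -0.85), so its ratio to Control rests on a signal far below 76.9. The rest of that list thus held no gene higher in HF. Of 8 glucocorticoid-responsive genes, 3 were higher and 1 lower in HF (median 0.39), and 0 passed in HF+SFC over HF. Named after their values were seen, the higher genes were the metallothionein genes Mt1 (2.44) and Mt2 (2.38) and Tsc22d3 (0.79). Metallothionein genes thus made up most of the higher count, which is not a reading of glucocorticoid action alone. In HF+SFC over HF, Mt1 stood at 0.50 and Mt2 at 0.58, just under 1.5-fold. The lower gene was Dusp1 (-0.73).

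Cell markers are given beside all kept genes, of which 11.3% were higher and 5.84% lower in HF. In HF+SFC over HF, 2.88% of all kept genes were higher and 5.33% lower. The endothelial and hepatocyte counts rest on 1 or 2 genes. Stellate cell and matrix markers were higher in 9 of 13 genes in HF (summed signals 17741, 26903 and 20444 in Control, HF and HF+SFC) and lower in 6 of 13 in HF+SFC than in HF. Macrophage markers were higher in 4 of 12 and then lower in 3 of 12 (summed 19781, 26912 and 20385), and endothelial markers higher in 2 of 11 and then lower in 1 of 11 (summed 10101, 11355 and 10065). Hepatocyte markers were lower in 1 of 12 and then passed in 0 (summed 500730, 470953 and 482610). Few genes of other lists were kept: 3 cholangiocyte markers (1 higher and 1 lower in HF, then 2 lower), 2 lymphocyte markers (1 higher, then 1 lower), 1 adipocyte marker, Fabp4 (higher in HF, log2 ratio 1.57, and -0.37 in HF+SFC over HF), and 1 pancreas marker, Cela1 (0.30 and 0.43). Cd3e, Adipoq, Lep, Ins2 and Gcg were below the lowest kept signal. In whole liver, fewer cells of a type and less RNA per cell cannot be told apart.

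Among all kept genes, those nearest to Igfbp1 and Irs2, which had the widest range of log2 signal of the 10 genes over the arrays, were ranked by distance between their pairs of log2 ratios against Control, over 3 arrays. The pattern of Igfbp1, high in Control and low in both HF arrays, was most like that of Lrfn3 (distance 0.085), Fabp5 (0.290), Csad (0.331), Slc25a30 (0.339) and Hspa1b (0.377). Fabp5, a fatty acid binding protein, had signals of 6587, 1259 and 1254, and Csad, an enzyme of taurine synthesis, had 9107, 2165 and 2385. Nearest to Irs2, with its lowest value in HF, were Acvr2b (0.145), Slc25a34 (0.194), Fat4 (0.292), Pnpla5 (0.335) and Zfp251 (0.340). All 5 were dim in HF, with signals of 48.8 to 136 there. Slc25a34, a mitochondrial carrier, had signals of 422, 136 and 226.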

How the data were processed

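Liver RNA of 3 pools was labelled with biotin and hybridised to Affymetrix mouse genome arrays. Per the labels, the deposited values are MAS5 signals, that is, intensities on a linear scale; the MAS5 version is not given in the sources used here. Before deposit, the authors had scaled the arrays to one target (2% trimmed mean 500.004 on each), and the array medians, in the order Control, HF and HF+SFC, were 81.7, 87.3 and 80.4. No background correction beyond that of the deposited MAS5 signals was applied here, and detection calls were not used.

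Of 45101 probe sets, 34945 named 1 gene in the platform annotation, which can be dated. The 932 probe sets that named several genes, 1 of them with Foxo3, named no gene, 9160 were unlisted, and 64 were controls. RefSeq identifiers on GRCm38.p6 matched 34741 and changed 0 symbols. For each gene the probe set with the highest mean log2 signal stood in, and the gene was kept if that mean fell in the upper 50% of all, at a signal of 76.9 or more. Log2 ratios of arrays were computed in Python 3.11.15 with numpy 2.4.6, pandas 2.3.3, scipy 1.17.1 and statsmodels 0.14.6, and figures in matplotlib 3.10.9. With 1 array per group no test was run. The number of arrays limits the precision. The steps were run on simulated data with 2-fold changes and the same noise at every signal. That run does not test calls at 1.5-fold or the wider spread of dim probe sets.

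The 10 genes, the other lists and the marker lists were chosen with earlier results of these data known. Beside the 10 genes, the text names up to 4 genes a pathway list at or beyond 1.5-fold in HF over Control or HF+SFC over HF by size, otherwise up to 2 by signal, and the 5 genes nearest in pattern to the 2 genes of widest range. Exceptions are stated where they stand, and clock and cell markers are examples picked after their values were seen. Alternatives were quantile normalization, median centring, lowess (fraction 0.3), no filter, the upper 25% of signal, a floor at the array median, a pseudocount of 16, the median over kept probe sets, no suffixed probe sets, and a 2-fold threshold. Promoter windows came from RefSeq on GRCm38.p6, and no entry was used for Insr.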

Additional observations from a re-analysis of the deposited data

How the results depend on the processing

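Of 264 log2 ratios of the 10 genes under alternatives, 119 were the reported value itself, because the setting (a signal filter, the floor, or the choice among probe sets) left the probe set and its signals as they were. Of the other 145, 127 moved by less than the spread between probe sets and 18 by more, and 0 that had passed 1.5-fold changed sign. Igfbp1 ranged from -2.23 to -2.07, Irs2 from -1.82 to -1.63 and Igfbp2 from -1.69 to -1.52 in HF over Control, and Irs2 from 0.93 to 1.11 in HF+SFC over HF. Without probe sets of several transcripts (suffixed), Igfbp2 had no value, Foxo3 was 0.35 and Akt2 -1.14 in HF over Control. As medians over probe sets, Insr stood at -0.58 and Foxo3 at 0.62. In the upper 25% of signal Irs2 had no value.

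Of the 10 genes, the count higher in HF over Control was 0 without suffixed probe sets and 0 at 2-fold, and the count higher in HF+SFC over Control likewise 0 and 0. Higher in HF+SFC over HF were 2 under median centring (Igfbp2 at 0.62), 0 in the upper 25% of signal and 0 at 2-fold, and lower in HF+SFC over Control were 2 at 2-fold. Of the pathway genes, those higher in HF over Control were 8 under median centring and 3 at 2-fold, and those lower 3 at 2-fold. In HF+SFC over HF, 7 were higher with no filter, 0 as the median over kept probe sets and 1 at 2-fold, and 1 was lower in the upper 25% of signal and 1 at 2-fold. In HF+SFC over Control, 2 were higher and 3 lower at 2-fold. The cause of each shift was not tested, except that the 2-fold threshold and the signal filters pass fewer or more genes by construction.

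Over all kept genes, 1282 were higher and 662 lower in HF over Control, which became 1078 and 839 under quantile normalization, 980 and 954 under median centring and 1092 and 797 under lowess. For HF+SFC over HF the counts of 327 and 605 became 452 and 456, 535 and 397, and 451 and 460. Median centring put the median of all kept genes at 0.11 in HF+SFC over HF, so that its ratios there are read against that value. No paired analysis was possible because each group had 1 array. Leaving out a replicate was not possible for the same reason. Dim probe sets limit what can be said of Irs2.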
